A study of Mus musculus with 2 samples.

Results

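Bone morphogenetic protein 4 (BMP4) is a secreted ligand that binds type I receptors such as BMPR1A together with a type II receptor. The activated receptor phosphorylates SMAD1, SMAD5 and SMAD9, which join SMAD4, enter the nucleus and act on target genes such as the Id genes, Msx1, Msx2 and the inhibitory Smad6. In mouse embryonic stem (ES) cells, BMP4 is known to act with leukaemia inhibitory factor (LIF) to maintain self-renewal, in part through the Id proteins, which lack a DNA-binding domain and hold E proteins and other basic helix-loop-helix (bHLH) factors away from DNA.

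The genes described are Bmp4, its receptor gene Bmpr1a, the signalling Smad5, the inhibitory Smad6, and the targets Id1, Id2, Id3, Id4, Msx1 and Msx2. These 10 genes of the 26127 measured were listed by name for their place in the pathway, and the pathway itself was chosen by the G34R to WT ratio of Bmp4 RPKM in the same libraries. Their G34R to WT differences are therefore given as a description, with no test. All 10 had a value above 0 in both libraries, and 9 of them reached 0.25 RPKM in 1 library or both, the minimum used for counts of changed genes. Msx1 did not reach it.

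The libraries came from 129S1/SvImJ mouse ES cells grown in medium with serum and LIF, below passage 20. The WT cells carried unmodified H3f3a and H3f3b, the genes for histone H3.3. The G34R cells carried 1 targeted H3f3a allele, in which Cre excision had placed a minigene for the glycine 34 to arginine mutant under the endogenous H3f3a promoter, beside 1 WT H3f3a allele and intact H3f3b. Total RNA was sequenced as 1 library per cell line, and which G34R clone was used is not given in the sources used here, so that genotype, clone and culture cannot be told apart and no value has a replicate error. Because each library was made from a whole culture, fewer cells of a type and less RNA per cell also cannot be told apart.

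Expression was given in the files as RPKM, the reads per kilobase of transcript and per library size. The change of a gene is its log2 ratio, the log2 of the G34R RPKM over the WT RPKM, with 0.01 RPKM as the lowest value allowed. The depth, estimated from RPKM steps of short single-exon genes, was 88.3 M reads in WT and 72.7 M in G34R, and estimated reads per gene gave an exact 95% counting interval for each ratio. These intervals cover counting error only, and they treat each read as independent. Reads amplified by PCR are not independent molecules, so the intervals can be too narrow even for that error. Counting error below means the error that these intervals give. A gene was called higher or lower where it had changed by more than 2-fold. The ES cell markers Pou5f1 (194.34 RPKM in WT and 189.46 RPKM in G34R) and Sox2 (73.83 RPKM and 75.05 RPKM) were high in both libraries, as the label of the cells states. The summed RPKM of 11 ES cell markers matched by name was 1795.05 in WT and 1502.83 in G34R. Of these, 3 (Nanog, Zfp42 and Fbxo15) were more than 2-fold lower in G34R. The listed marker Tfcp2l1, measured under its older symbol Tcfcp2l1, was not matched and is not in this sum. It had 40.75 RPKM in WT and 53.39 RPKM in G34R.

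The promoters of the genes were read from RefSeq on GRCm38.p6, the later mouse assembly, as the 250 bases before each transcription start. Windows were matched for 9 of the 10 genes, and Id1 had none. They were searched for GGCGCC, a GC-rich element of the kind bound by BMP-activated Smads, which reads the same on both strands, and for the Smad box CAGAC on either strand (GTCTG on the other). The end of either motif can share a base with the other, and CAGAC can overlap itself. GGCGCC was found in 9.59% and the Smad box in 42.19% of all 32851 windows of this length. Of the 9 genes, 4 held GGCGCC: Bmpr1a, Smad5, Id2 and Id4. Smad5 had more than 1 window, so this count is per gene, while the 9.59% is per window. Each window of the 9 genes was also richer in GC than the median of 52.4% over all windows. GGCGCC holds only G and C, so nothing is read from the count beside the 9.59%. The Smad box was found in windows of Smad5 and Id3, in Id3 at 2 places, starting 167 and 68 bases before the transcription start. No match to either motif was found in the windows of Bmp4, Smad6, Msx1 and Msx2.

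The windows of Bmp4, Id2 and Id4 are shown because these are the ligand gene and a pair of Id genes that share GGCGCC and whose expression differed between the libraries by unlike amounts. They lie on the minus strand at chr14:46390670-46390919 for Bmp4, on the minus strand at chr12:25096093-25096342 for Id2 and on the plus strand at chr13:48260866-48261115 for Id4. Each is written 5′ to 3′ on the gene's own strand, with GGCGCC in capitals, starting 231 bases before the transcription start in Id2 and 148 bases before it in Id4. A match to these letters is a description of the sequence and not a binding site.
Bmp4: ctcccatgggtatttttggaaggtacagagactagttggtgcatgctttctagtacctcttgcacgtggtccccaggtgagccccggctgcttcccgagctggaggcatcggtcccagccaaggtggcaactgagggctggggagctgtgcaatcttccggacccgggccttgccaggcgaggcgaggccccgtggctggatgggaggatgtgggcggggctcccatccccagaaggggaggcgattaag
Id2: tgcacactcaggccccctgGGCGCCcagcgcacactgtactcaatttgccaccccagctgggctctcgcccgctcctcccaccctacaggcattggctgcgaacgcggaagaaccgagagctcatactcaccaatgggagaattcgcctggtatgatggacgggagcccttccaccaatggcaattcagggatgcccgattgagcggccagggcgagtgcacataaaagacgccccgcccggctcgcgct
Id4: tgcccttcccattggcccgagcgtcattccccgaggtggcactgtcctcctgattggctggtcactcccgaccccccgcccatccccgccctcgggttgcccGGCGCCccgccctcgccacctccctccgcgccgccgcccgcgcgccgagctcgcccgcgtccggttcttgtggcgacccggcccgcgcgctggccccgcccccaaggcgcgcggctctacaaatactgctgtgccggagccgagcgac

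Bmp4 and 2 Id genes, Id1 and Id4, were more than 2-fold higher in G34R cells than in WT cells, and 1 gene, Id3, was more than 2-fold lower. The other 5 genes that reached 0.25 RPKM (Bmpr1a, Smad5, Smad6, Id2 and Msx2) did not pass 2-fold in either direction. Among all 13366 genes with at least 0.25 RPKM in 1 library, 5.79% were higher by this rule, 9.64% lower and 15.4% either, and nothing is read from their count beside these shares because the genes were chosen with the contrast known. The median log2 ratio of the 9 genes was 0.38, and that of all 13366 was -0.07. The 9 include Bmp4, whose ratio chose the pathway, so nothing is read from these medians either.

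**Figure D1:**
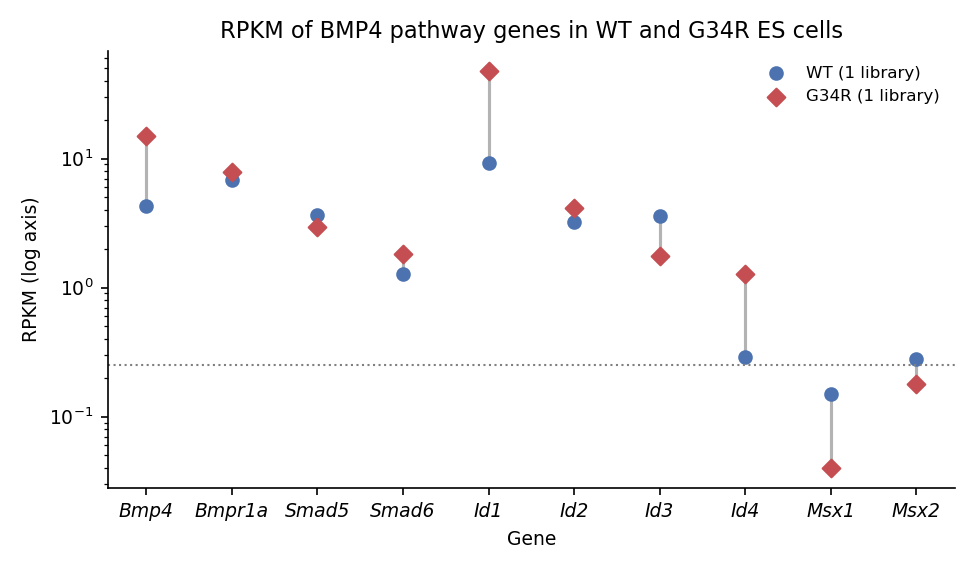
RPKM (log axis) of the 10 BMP4 pathway genes in the WT library (blue circles) and the G34R library (red diamonds), joined by a grey line for each gene, with the dotted line at 0.25 RPKM. Id1 has the highest value in both libraries, with 9.22 RPKM in WT and 48.04 RPKM in G34R, and Msx1 the lowest.

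The ligand gene Bmp4 (ENSMUSG00000021835, minus strand, chr14:47003195-47010344 in mm9, the assembly of the files) had 4.29 RPKM in the WT library and 14.97 RPKM in the G34R library. The G34R library was 3.49-fold above the WT library, a log2 ratio of 1.80 with a counting interval of 1.69 to 1.92 from an estimated 842 and 2420 reads. In all, 243 of the 13366 genes had a larger ratio. Gm15222, a gene on the opposite strand that overlaps Bmp4, had 0.07 RPKM in WT and 0.32 RPKM in G34R, or 1.63% and 2.14% of the Bmp4 value, and the other overlapping gene, Gm15217, was at 0 in both libraries. Reads were counted by strand.

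The genes next to Bmp4 on the chromosome stayed within 2-fold. Of the 5 nearest genes on each side with at least 0.25 RPKM, over 1.86 Mb, 0 of 10 passed 2-fold in either direction, and their median log2 ratio was -0.15. The lowest was Cdkn3 at -0.42, and the highest, Cgrrf1, stood at 2-fold. These neighbours were taken by position alone, and the ends of the range are named because of their values.

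Bmpr1a, which encodes a type I receptor for BMP2 and BMP4 (ENSMUSG00000021796, minus strand, chr14:35223920-35316527 in mm9), had 6.79 RPKM in the WT library and 7.84 RPKM in the G34R library. The log2 ratio was 0.21 (counting interval 0.14 to 0.27), above 0 by more than the counting error and well short of 2-fold. Of its 10 nearest genes, 5 were more than 2-fold lower in G34R, with a median log2 ratio of -0.80. The lower neighbours were Fam25c, Sncg, Mmrn2, Ldb3 and Cdhr1, of which Mmrn2 had 7.45 RPKM in WT and 0.46 RPKM in G34R. Bmpr1a itself was thus within 2-fold while 5 genes around it were not.

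Smad5, which encodes a receptor-activated Smad of the BMP branch (ENSMUSG00000021540, plus strand, chr13:56804371-56843738 in mm9), had 3.65 RPKM in the WT library and 2.93 RPKM in the G34R library. Its log2 ratio was -0.32 (counting interval -0.41 to -0.22), within 2-fold and opposite in sign to that of Bmp4. Of its 10 nearest genes, 3 were higher and 1 was lower, with a median log2 ratio of 0.37. Smad6, which encodes an inhibitory Smad and is itself a BMP target (ENSMUSG00000036867, minus strand, chr9:63800953-63869866), had 1.27 RPKM and 1.81 RPKM. Its log2 ratio was 0.51 (counting interval 0.30 to 0.72). Neither gene was called, and each differed between the libraries by more than the counting error.

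**Figure D2:**
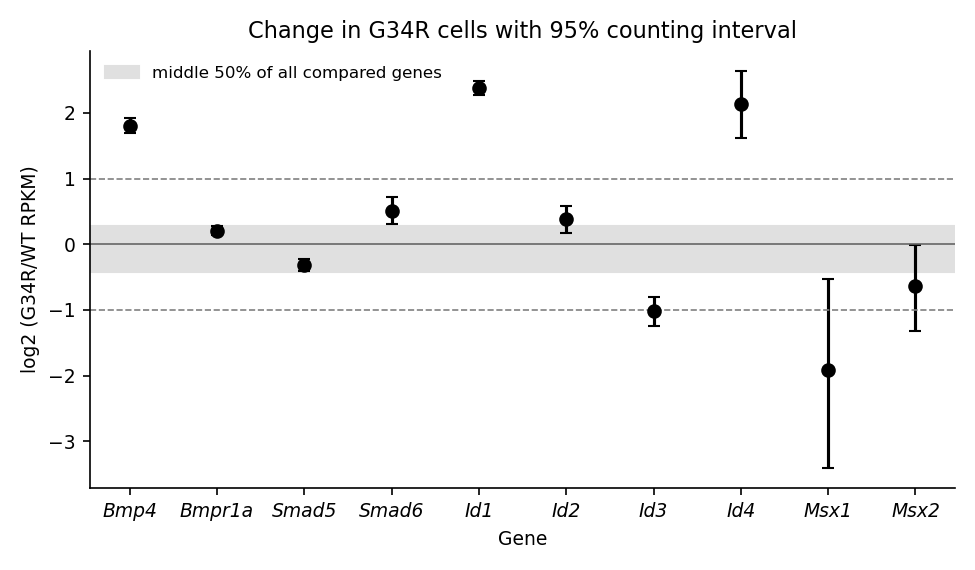
Log2 (G34R/WT RPKM) of each gene (points) with its exact 95% counting interval (bars), which has no replicate error in it. Dashed lines mark 2-fold, and the grey band holds the middle 50% of the 13366 compared genes, from -0.42 to 0.27. Bmp4, Id1 and Id4 lie above the upper dashed line with their whole interval, and the intervals of Id3, Msx1 and Msx2 cross the lower one.

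The Id genes differed from each other in direction. Id1 (ENSMUSG00000042745, plus strand, chr2:152561987-152563146 in mm9) had 9.22 RPKM in the WT library and 48.04 RPKM in the G34R library, 5.21-fold higher in G34R. The log2 ratio was 2.38 (counting interval 2.28 to 2.49, an estimated 944 and 4051 reads), and 125 of the 13366 genes had a larger one. Id1 was the highest of the 10 genes in both libraries. Over all 26127 genes, 3375 had a higher RPKM than Id1 in WT cells and 540 in G34R cells. Of its 10 nearest genes, 0 were higher and 1 (Nrsn2) was lower by the 2-fold rule, with a median log2 ratio of -0.27.

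Id4 (ENSMUSG00000021379, plus strand, chr13:48356796-48359405 in mm9) had 0.29 RPKM in WT cells, just above the 0.25 RPKM minimum, and 1.28 RPKM in G34R cells. This is 4.41-fold higher in G34R, a log2 ratio of 2.14, with a wider counting interval of 1.62 to 2.64 because an estimated 43 and 154 reads lay behind it. At this low level Id4 was not called with 1 RPKM added to each value. Id2 (ENSMUSG00000020644, minus strand, chr12:25778666-25780957) had 3.21 RPKM and 4.17 RPKM. Its log2 ratio was 0.38 (counting interval 0.17 to 0.59), so that it was above the WT value by more than the counting error and within 2-fold. Id4 and Id2, whose promoter windows both held GGCGCC, differed in the size of their change.

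Id3 (ENSMUSG00000007872, plus strand, chr4:135699412-135701670 in mm9) went the other way, with 3.59 RPKM in the WT library and 1.77 RPKM in the G34R library. The WT library was 2.03-fold above the G34R library, a log2 ratio of -1.02 whose counting interval of -1.25 to -0.80 includes 2-fold. Id3 therefore stood just past the threshold, and it fell short of 2-fold when the G34R values were rescaled by 1.01 to 1.03 to match the libraries. The nearest gene on the other side of the lower threshold was Msx2, at -0.64. The direction of Id3 was the same under each scaling and pseudocount tried.

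**Figure D3:**
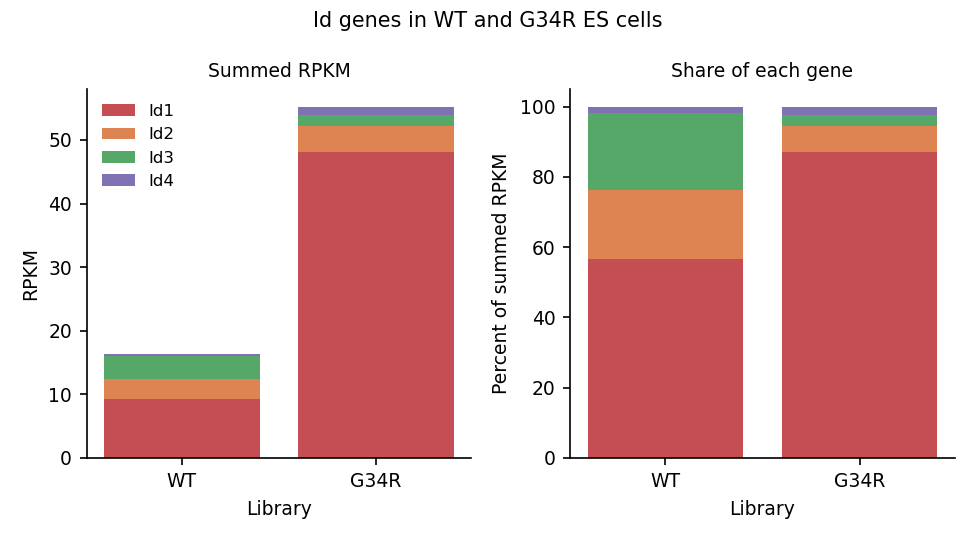
Stacked bars of the 4 Id genes in each library (1 library per bar), as RPKM on the left and as the percent of their summed RPKM on the right. Id1 makes up 56.5% of the sum in WT and 86.9% in G34R, and the other Id genes together have 7.09 RPKM and 7.22 RPKM.

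Because RPKM is corrected for transcript length, the Id genes can be added. Their sum was 16.31 RPKM in the WT library and 55.26 RPKM in the G34R library, 3.39-fold higher in G34R. Without Id1, the sum of Id2, Id3 and Id4 was 7.09 RPKM in WT and 7.22 RPKM in G34R, 1.02-fold. Id1 went from 56.5% to 86.9% of the Id sum, while Id2 went from 19.7% to 7.55% and Id3 from 22.0% to 3.20%. Id4 was 1.78% and 2.32% of it. From the highest level to the lowest the order was Id1, Id3, Id2 and Id4 in WT, and Id1, Id2, Id3 and Id4 in G34R.

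The E proteins, which bind DNA as partners of other bHLH factors and which Id proteins sequester, were measured as Tcf3 (also named Tcfe2a), Tcf12 and Tcf4. Tcf3 had 15.67 RPKM in WT and 19.58 RPKM in G34R, Tcf12 had 2.44 RPKM and 5.29 RPKM, and Tcf4 had 1.38 RPKM and 1.42 RPKM. Tcf12 alone was called, with a log2 ratio of 1.12. The Id sum was 0.837 of the E protein sum in WT cells and 2.10 times it in G34R cells.

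Msx1 and Msx2 encode homeobox repressors that BMP signals are known to induce in limb, tooth and neural crest. Msx1 (ENSMUSG00000048450, minus strand, chr5:38211724-38215822 in mm9) had 0.15 RPKM in the WT library and 0.04 RPKM in the G34R library, an estimated 26 and 6 reads. Its log2 ratio of -1.91 had a counting interval of -3.41 to -0.52. Msx2 (ENSMUSG00000021469, minus strand, chr13:53562250-53568443) had 0.28 RPKM and 0.18 RPKM, a log2 ratio of -0.64 (counting interval -1.32 to -0.01). Both genes were at a low level in both libraries and below their WT level in G34R, with counting intervals that stay under 0. For Msx2 the upper end, -0.01, is only just under 0. Rescaling the libraries to the same sum moved its ratio by more than that margin, from -0.64 to -0.59. Bmp4 and these targets differed in the sign of their ratio in these 2 libraries, with few reads behind Msx1 and Msx2.

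**Figure D4:**
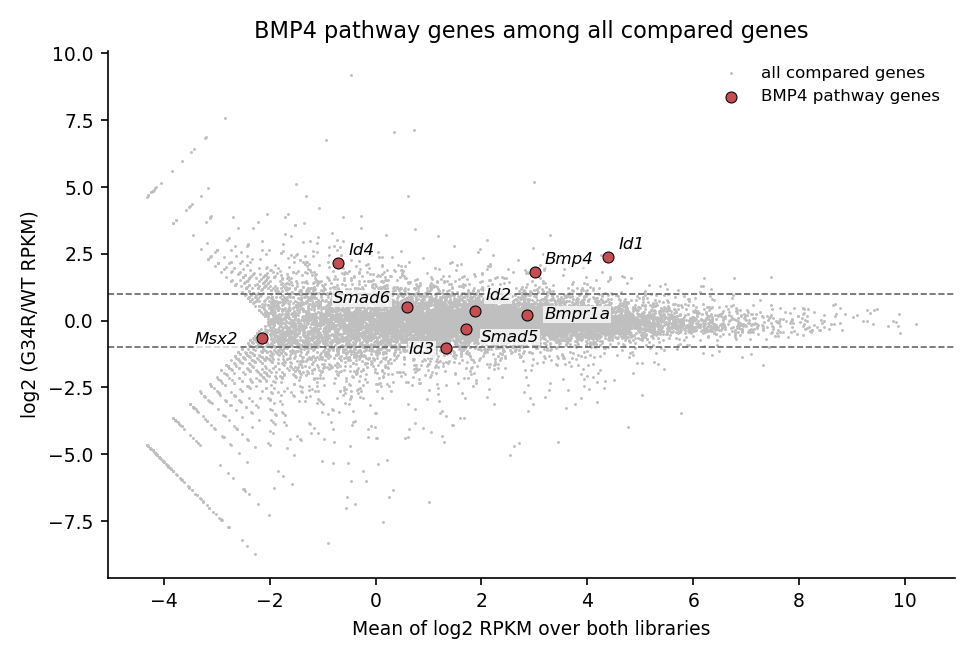
Log2 (G34R/WT RPKM) against the mean log2 RPKM of both libraries for the 13366 genes with at least 0.25 RPKM in 1 library (grey), with 9 of the 10 BMP4 pathway genes in red and dashed lines at 2-fold. Bmp4 and Id1 lie at the upper edge of the cloud at 1.80 and 2.38, Id4 is high at a low level, and Smad5, Bmpr1a and Id2 lie inside the cloud.

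By their level in the libraries the genes fell in the order Id1, Bmpr1a, Bmp4, Smad5, Id3, Id2, Smad6, Id4, Msx2 and Msx1 in WT cells. In G34R cells Bmp4 stood above Bmpr1a, Id2 above Smad5, and Smad6 above Id3, while Id1 stayed first and Id4, Msx2 and Msx1 stayed last. Levels of neighbours in this order such as Id3 and Smad5 in WT (3.59 RPKM and 3.65 RPKM) have no replicate spread to set them against.

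The genes with a pattern most like Bmp4, by Euclidean distance of log2 RPKM over the 2 libraries, were Nr2c2ap (4.70 RPKM in WT and 15.14 RPKM in G34R, distance 0.13), Calca (3.97 RPKM and 13.61 RPKM, distance 0.18) and Pmaip1 (3.88 RPKM and 13.76 RPKM, distance 0.19). Those most like Id1 were Sfn (9.35 RPKM and 50.60 RPKM, distance 0.08), Dnmt1 (8.14 RPKM and 44.43 RPKM, distance 0.21) and 6430527G18Rik (10.28 RPKM and 36.80 RPKM, distance 0.42). With 2 libraries, likeness means only a similar level and a similar ratio.

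The wider pathway was taken from 6 lists: BMP ligands, receptors and co-receptors, Smads and their regulators, extracellular modulators, target genes, and E proteins with bHLH genes of the neural lineage. They held 88 genes, of which 86 were matched by name to a value and 54 of these reached 0.25 RPKM in 1 library. Of these 54, 9 were higher and 4 lower by the 2-fold rule, 41 were neither, and the median log2 ratio was 0.23. Without the 10 genes above, 6 of 45 were higher and 3 lower, with a median of 0.22, beside the 5.79%, 9.64% and -0.07 of all genes. Of these 6, 3 (Tcf12, Olig1 and Olig2) came from the list of E proteins and neural bHLH genes. That list had the largest median of the 6 lists, 0.96, and Olig1 and Olig2 reached 0.25 RPKM in G34R only. Nothing is read from these counts and medians beside those of all genes. The target genes Tfap2a and Tfap2c were not matched and are not in these counts and medians. Tfap2c was measured under its older symbol Tcfap2c. The lists were made with results of these libraries known.

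Among the ligands, Bmp4 was the 1 gene called of 5 that reached 0.25 RPKM. Bmp7, the next highest BMP ligand, had 0.53 RPKM in WT and 0.82 RPKM in G34R, and the ligands together summed to 5.95 RPKM and 17.03 RPKM, so that Bmp4 made up most of the ligand RPKM in both libraries. Bmp3, Bmp5, Bmp10, Gdf2 and Gdf6 were listed at 0 in both. Among the receptors, 1 of 9 was called, Acvrl1 (ALK1, a type I receptor best known from endothelium), with 0.27 RPKM in WT and 0.78 RPKM in G34R. The type II receptor gene Acvr2b had 6.76 RPKM and 9.07 RPKM.

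Of 11 Smads and regulators, 0 were higher and 1 was lower. The lower gene was Skil (SnoN, a repressor of Smad-dependent transcription), with 15.26 RPKM in WT and 7.45 RPKM in G34R, a log2 ratio of -1.03. Like Id3, it was lower by little more than 2-fold, and it was no longer called with the libraries rescaled to the same sum or to a median of 0, or with 1 RPKM added. The highest of the list by the mean of both libraries were Smad7, an inhibitory Smad, at 13.92 RPKM and 16.26 RPKM, and Ski, a repressor related to Skil, at 11.77 RPKM and 14.58 RPKM. Of 9 extracellular modulators, 2 were higher: Dand5, a secreted antagonist (0.50 RPKM and 1.02 RPKM), and Bmp1, a protease that cleaves chordin (0.29 RPKM and 0.66 RPKM). Both counting intervals include 2-fold, with log2 ratios of 0.60 to 1.47 for Dand5 and 0.84 to 1.54 for Bmp1, and neither was called with 0.1 RPKM added. Twsg1 (9.18 RPKM and 7.09 RPKM) and Fstl1 (4.99 RPKM and 9.26 RPKM), the modulators of highest level, were within 2-fold.

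Among 16 target genes matched by name that reached 0.25 RPKM, 2 were higher (Id1 and Id4) and 3 were lower (Id3, Gata2 and Prdm1). The other 11 were neither, and the median log2 ratio of the 16 was -0.09. Prdm1, a repressor needed for primordial germ cells, had 2.50 RPKM in WT and 0.62 RPKM in G34R, a log2 ratio of -2.01. Gata2, a zinc-finger factor of blood and trophoblast, had 0.51 RPKM and 0.23 RPKM and was not called with 0.1 RPKM added. The target with the highest mean level, Dusp9, a phosphatase for ERK, had 38.55 RPKM and 29.01 RPKM. The listed targets thus held both directions. Their median is the midpoint of a gap between Dusp9 (log2 ratio -0.41) and Smad7 (0.22), with no target near it. The listed targets Tfap2a and Tfap2c were not matched. Tfap2c was measured under its older symbol Tcfap2c and had 5.19 RPKM in WT and 6.81 RPKM in G34R (log2 ratio 0.39). The median depends on which targets were matched, and nothing is read from its place beside all genes.

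In the list of E proteins and neural bHLH genes, 3 of 7 were higher and 0 were lower. Besides Tcf12 these were Olig1 (0.14 RPKM in WT and 19.60 RPKM in G34R) and Olig2 (0.03 RPKM and 17.71 RPKM), bHLH factors of the oligodendrocyte and motor neuron lineage and known partners of E proteins. They had the largest log2 ratios of the 6 lists, 7.13 and 9.21. Few reads lay behind Olig2 in WT, and its counting interval ran from 8.19 to 10.76.

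**Figure D5:**
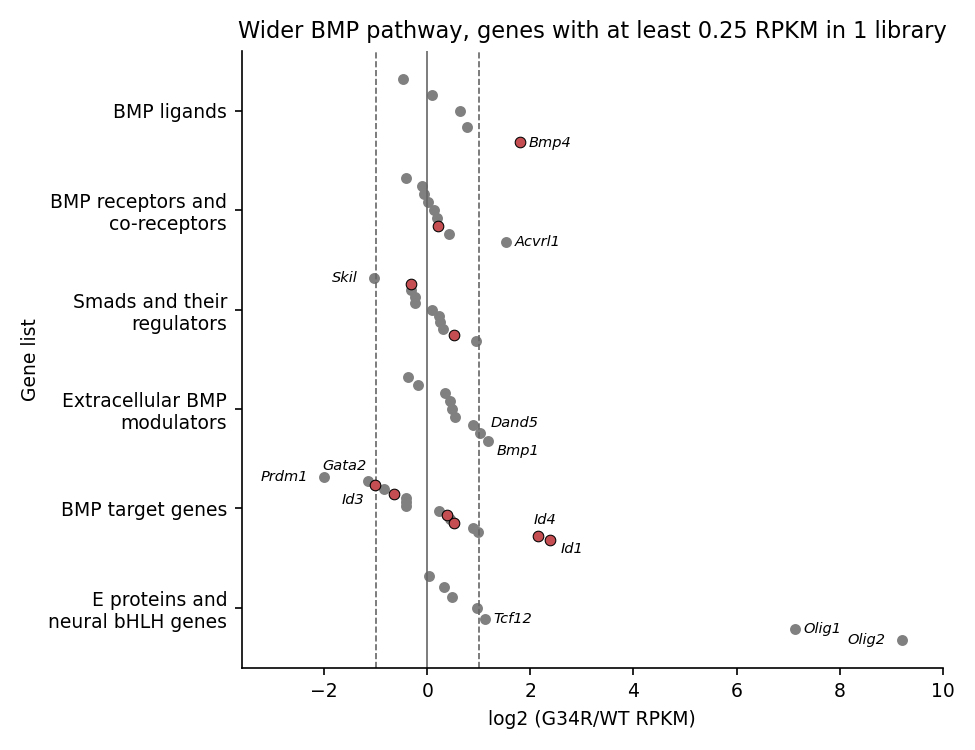
Log2 (G34R/WT RPKM) of the genes in the 6 pathway lists with at least 0.25 RPKM in 1 library (1 point per gene, spread vertically within its list for legibility), with the BMP4 pathway genes described above in red, dashed lines at 2-fold and names for genes past it. Most points lie between the dashed lines, Bmp4 is the ligand past 2-fold, and the target genes lie on both sides of 0. Smad6, Smad7 and Bambi each stand in 2 lists. The listed targets Tfap2a and Tfap2c were not matched by name and are not shown.

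Markers of other cell types moved between the libraries as well. Among the 13366 compared genes, 5954 were above and 7355 below their WT level in G34R, and 5.79% were higher and 9.64% lower by the 2-fold rule. Of 10 primitive endoderm markers, 9 were above their WT level in G34R, 3 of them more than 2-fold (Gata4, Gata6 and Sox17). The summed RPKM of the 10 was 52.62 in WT and 86.77 in G34R. Most of it came from Lama1 (11.56 RPKM and 20.26 RPKM) and Sparc (31.72 RPKM and 53.36 RPKM), which were not called. Gata4, Gata6 and Sox17 were at 1.18 RPKM or below in both libraries. The sum of 10 mesoderm markers was 2.24 and 4.17, with Eomes higher and Meox1 lower. The 9 trophoblast markers matched by name summed to 14.67 and 8.73. Of these 9, 4 were above their WT level and 5 below. Of the 5 that reached 0.25 RPKM, 0 were higher and 2 (Ascl2 and Plac1) were lower by the 2-fold rule. The listed marker Tfap2c was measured under its older symbol Tcfap2c and is in none of these values. It had 5.19 RPKM in WT and 6.81 RPKM in G34R. Fibroblast markers summed to 3.03 and 1.23. Postn, Lum and Dcn were at 0 in both libraries, the 7 others were all below their WT level, and 2 of these (Pdgfrb and Acta2) were lower by the 2-fold rule. The 8 neural markers matched by name summed to 37.45 and 47.31, with Olig1 and Olig2 higher and Tubb3 lower. Map2, listed as well, was measured under its older symbol Mtap2 (0.30 RPKM in WT and 0.34 RPKM in G34R) and is not in this sum. Sox1, also listed, was not matched by name. The part of these markers in the Bmp4 and Id values was not tested.

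On chromosome 8 beyond 60 Mb, 440 of 534 genes were above their WT level in G34R, with a median log2 ratio of 0.45, against -0.08 for 195 genes before 60 Mb. None of the 10 genes lies on chromosome 8. Of the called pathway genes, Dand5 lies in this stretch. Smad1, which encodes a BMP-activated Smad that works beside SMAD5, also lies there and had 1.83 RPKM and 3.53 RPKM (log2 ratio 0.95), as does the target gene Zfp423, with 3.95 RPKM and 7.85 RPKM (log2 ratio 0.99). These 2 genes are named because of their position and values, and neither passed 2-fold in the values as deposited. Zfp423 did pass it under each of the 3 scalings. The part of this stretch in their values was not tested.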

How the data were processed

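RNA from WT and G34R mouse ES cells was sequenced as 1 library each. The authors aligned stranded 50 bp single-end reads to mm9 with STAR (2.4.2a), quantitated primary alignments in Seqmonk over merged isoforms with a correction for transcript length, and deposited RPKM for 26127 probes, with 2 decimals. Counts were not used here. RPKM is relative to the reads of its own library, so that a change in a few very high genes would move all other values.

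Log2 (G34R/WT RPKM) was calculated with a floor of 0.01 RPKM. A call needed more than 2-fold and at least 0.25 RPKM in 1 library, and all other counts of changed genes used the same rule. The low RPKM values of single-exon genes are whole multiples of 1 read, and those below 800 bp and 6 reads gave the depth (75 genes in WT, 67 in G34R). Reads per gene were estimated as RPKM times exon length in GENCODE M1 times depth, and their exact (Clopper-Pearson) 95% intervals gave the interval of each ratio. The exon length of Id1 covers its whole span, a retained intron included. At these depths 1 read per kb is 0.0113 RPKM in WT and 0.0138 RPKM in G34R. The scripts were tested on simulated data.

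With 1 library per cell line there was no test, and p-values were not calculated. The genes, lists and rules were chosen with earlier results of these data known. Genes named are the 10 described, listed pathway genes past 2-fold, the 2 of highest mean RPKM in each list, and the 3 nearest in pattern to Bmp4 and to Id1. Cell type markers and neighbouring genes were named after their values were seen. Gene positions are those of mm9, and promoter windows were taken from RefSeq on GRCm38.p6, whose sequences each matched mm9 once. Alternatives were other pseudocounts, scalings, filters and fold thresholds. Leaving out chromosome 8 beyond 60 Mb was added after seeing the data. Python 3.11.15, NumPy 2.4.6, pandas 2.3.3, SciPy 1.17.1 and matplotlib 3.10.9 were used.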

Additional observations from a re-analysis of the deposited data

How the results depend on the processing

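With 1 library per cell line, no library could be left out, and the counting intervals bound sampling of reads only. No paired analysis was possible because each cell line had 1 library and no test was made. Bmp4, Id1 and Id4 were the 3 genes called higher, and the same 3 were called under every alternative run except with 1 RPKM added, where Id4 was lost and 2 were left. The log2 ratios of Bmp4 and Id1 stayed within their counting intervals except with 1 RPKM added, where they were 1.59 and 2.26. The same addition moved Id3 to -0.73, Id4 to 0.82 and Msx1 to -0.15, and no ratio of the 10 genes changed sign.

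The count of genes lower among the 10 (1, Id3) was 0 with 0.1 or 1 RPKM added, with the libraries rescaled to the same sum, to the same upper quartile or to a median log2 ratio of 0 over genes with at least 1 RPKM in both libraries, and at 3-fold. It was 2 with no filter (Id3 and Msx1) and at 1.5-fold (Id3 and Msx2). Of the pathway lists, the 9 genes higher became 7 with 0.1 RPKM added (without Dand5 and Bmp1), 4 with 1 RPKM added (Bmp4, Id1, Olig1 and Olig2), 11 with the same sum, 10 with the same upper quartile, 11 with a median of 0, 16 at 1.5-fold and 5 at 3-fold. With no filter 12 were higher (Gdf5, Tll1 and Cdx2 added), and with at least 1 RPKM 7 were (without Acvrl1 and Bmp1). Zfp423 was among the higher genes in all 3 scalings. The 4 genes lower became 2 with 0.1 RPKM added (Skil and Prdm1) and 1 with 1 RPKM added (Prdm1). They became 2 with the same sum and 2 with a median of 0 (Gata2 and Prdm1 in both), and 3 with the same upper quartile (without Id3). With no filter there were 11, with at least 1 RPKM 3 (without Gata2), at 1.5-fold 6 (Msx2 and Prdm14 added) and at 3-fold 1. Over all genes, the 774 higher and 1289 lower became 613 and 1089 with 0.1 RPKM added, 196 and 356 with 1 RPKM added, 1445 and 2877 with no filter, 439 and 689 with at least 1 RPKM, 1784 and 2431 at 1.5-fold, and 331 and 729 at 3-fold. Without chromosome 8 beyond 60 Mb they were 709 and 1266, and the pathway lists held 8 higher and 4 lower. In the scalings to the same sum and to a median of 0, the G34R values were multiplied by 1.03. The median over all genes then moved from -0.07 to -0.02. In the scaling to the same upper quartile they were multiplied by 1.01, and the median moved to -0.05.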
